A study of Monodelphis domestica with 6 samples.

Results

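The LSD1 and FD2M1 monoiPSC lines, the induced pluripotent stem cells made from each of 2 inbred strains of a marsupial, the opossum *Monodelphis domestica*, were compared with each other at passages 15 and 25. The comparison used the 4 monoiPSC libraries of the 6 libraries in the series, 2 per line, and the 34680 autosomal genes of 35665 genes in the count table, the chromosome being part of each gene identifier. LSD1 is here the name of a strain and not of the histone demethylase. Both lines were wild type, came from skin fibroblasts (neoSFs) of neonatal female pups, and were reprogrammed in the same way with episomal plasmids encoding human OCT4, SOX2, NANOG, KLF4, LIN28 and cMYC. Both were then picked as colonies and grown without feeder cells in a medium with LIF, bFGF and a ROCK inhibitor. Each strain was represented by the single line of its name, so that strain, animal, reprogramming event and line cannot be told apart. By their titles, passages 15 and 25 of a strain are the same line, but the study also speaks of clones, and whether each pair of passages is 1 clone is not given. With passage as covariate, p-values measure the difference of the lines against how far that difference varied between the passages, an error moderated over genes. A change with passage shared by both lines was taken out by these fits, but not by the alternative fits without a passage term.

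The naive or primed state of a pluripotent cell is held by a small set of transcription factors, POU5F1, SOX2 and NANOG among them, and by the growth factors in the medium. Lines of pluripotent cells are known to differ in how readily single cells leave this state, in which lineage genes they then express, and in how far their endogenous retroviruses are transcribed, since these elements are often released from silencing in pluripotent cells. In cultures read as a whole, fewer cells of a type and less RNA per cell cannot be told apart.

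The total count per library was 28684754 to 35564261 in the 4 monoiPSC libraries. In total, 12653 autosomal genes had a mean normalized read count (NRC, the deposited counts scaled between libraries) of at least 20 and were tested, while 17781 genes were at 0 in all 4 libraries and 4246 lay in between. The markers of pluripotent cells were present in all 4 libraries, with an NRC of 219 to 299.8 for POU5F1, 2649 to 4088 for SOX2 and 1771 to 3034 for SALL4. GATA4 and APOA2 (hypoblast) and KRT14 (keratinocyte) were at 0 in all 4, and the keratinocyte factor TP63 did not exceed 1 count in any of them. Other genes of these lists were detected. The filter was passed by 6 of 17 autosomal hypoblast genes and by 10 of 16 autosomal keratinocyte genes. Markers of fibroblasts, neurons and skeletal muscle were detected in both lines, and their values are given with the results they move with.

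No gene passed the adjusted threshold with edgeR, while DESeq2 called 201, and the genes below are described by their levels. At both passages LSD1 had the higher levels of ETV2 and TAL1, regulators of the blood and endothelial lineage. The adhesion molecule MCAM and the muscle regulator MYOG were also higher in LSD1 at both passages. Not all genes of these lineages went this way. FLI1 was higher in FD2M1, and the levels of the lines overlapped for KDR and for the muscle factor MYOD1. TAL1 was at low levels in FD2M1, and the list of endothelial and blood genes was added after ETV2 was seen. FD2M1 had the higher levels of most endogenous retrovirus group K-like genes, of COL3A1, PDGFRA, TBX2 and IGF1, of the RNA-binding proteins LIN28B and IGF2BP1, and of CCNE1, the cyclin that drives entry into S phase. With edgeR's quasi-likelihood test, passage as a covariate and Benjamini-Hochberg adjustment, 0 of 12653 genes passed an adjusted p of 0.05 and a 2-fold difference (0%), and the lowest adjusted p was 0.176. An unadjusted p under 0.05 was found for 1751 genes, of which 872 were higher in LSD1 (6.89% of genes tested) and 879 higher in FD2M1 (6.95%). On the same libraries DESeq2 called 127 genes higher in LSD1 (1.00%) and 74 higher in FD2M1 (0.585%), and 200 of these 201 had an unadjusted edgeR p under 0.05. limma on the deposited log2 values called 0 genes, with 1419 at an unadjusted p under 0.05.

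The size of the difference between lines was close to that between passages. The median absolute difference of log2(NRC + 1) between LSD1 and FD2M1 was 0.30 at passage 15 and 0.28 at passage 25, against 0.23 between the passages of FD2M1 and 0.29 between those of LSD1. Both LSD1 libraries lay above both FD2M1 libraries for 2639 genes (20.9%), and both FD2M1 libraries lay above both LSD1 libraries for 2825 (22.3%). The sign of the difference was the same at both passages for 7863 genes (62.1%). Across genes, which are not independent replicates, the differences at the 2 passages had a Pearson's r of 0.30, each passage having its own pair of libraries. Differences of at least 2-fold at both passages with the same sign were found for 135 genes higher in LSD1 and 120 higher in FD2M1.

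**Figure D1:**
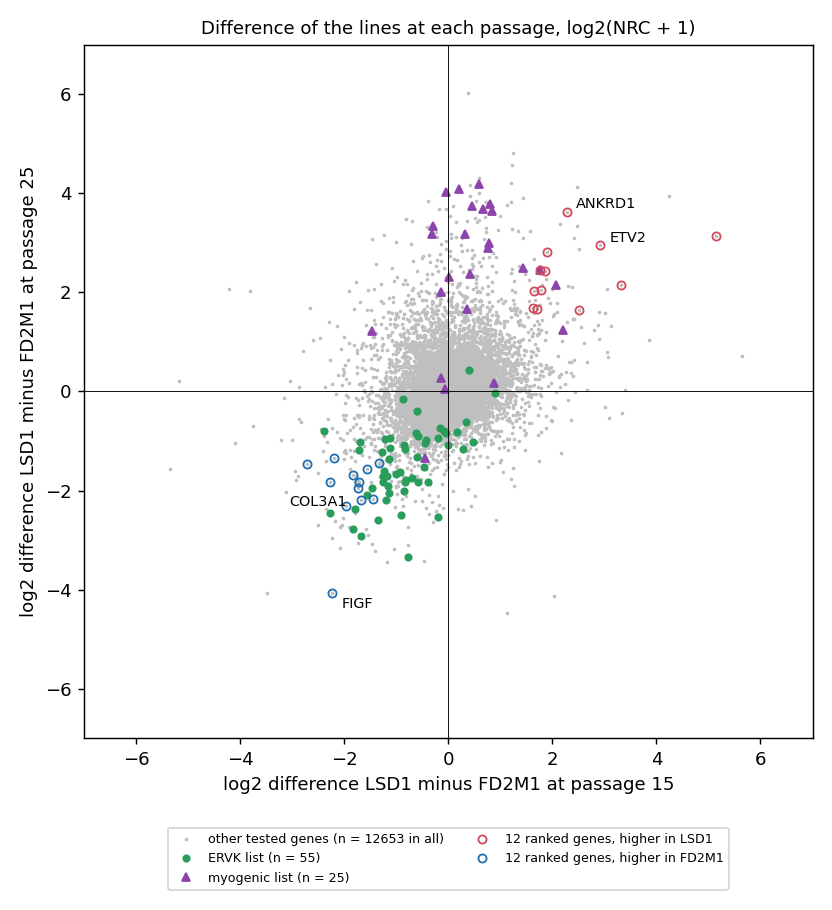
Log2 difference of LSD1 minus FD2M1 on the log2(NRC + 1) scale at passage 15 (horizontal) and passage 25 (vertical) for the 12653 autosomal genes tested, 1 point per gene, with the 55 ERVK-like genes, the 25 myogenic genes and the ranked genes of each direction marked. ERVK-like genes lie mostly at lower left, while myogenic genes lie high at passage 25 and near 0 at passage 15.

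Among genes with a symbol, 12 were ranked as most consistently higher in LSD1, and the 11 reported here were ETV2, ANKRD1, TRIM66, DAPL1, PPP1R3C, SCRN1, NEB, SLC6A12, RARRES2, GJA5 and ADORA1. They were ranked by the smaller of their differences at passages 15 and 25, among genes whose lines did not overlap, so that their separation was part of the choice.

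ETV2 (gene 103103750, chromosome 4), an ETS factor at the top of the blood and endothelial programme, had an NRC of 17.3 and 124 in FD2M1 and of 138 and 965 in LSD1 at passages 15 and 25. It was higher at passage 25 in both lines, and its level in FD2M1 at passage 25 was just under that of LSD1 at passage 15. The log2 difference was 2.96 (standard error 0.26, unadjusted p = 4.8e-05 and adjusted p = 0.176 with edgeR). It ranged from 1.01 to 4.97 over the fits that left out 1 library, the lowest value being found without LSD1 at passage 25 and the highest without FD2M1 at passage 25. ANKRD1, a nuclear ankyrin repeat protein of muscle and stretched cells, had an NRC of 31.4 and 82.4 in FD2M1 and of 157 and 1029 in LSD1, so that most of its excess in LSD1 was found at passage 25. NEB, which encodes the thin-filament protein nebulin, had 30.3 and 39.2 in FD2M1 and 106 and 219.7 in LSD1.

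PPP1R3C, a glycogen-targeting subunit of protein phosphatase 1, had an NRC of 250.3 and 228 in FD2M1 and of 913 and 1235 in LSD1. RARRES2, which encodes the secreted attractant chemerin, had 267 and 219 in FD2M1 and 836 and 894 in LSD1. SCRN1 (secernin) had 155 and 181 in FD2M1 and 538 and 751 in LSD1. In these genes the passages of 1 line were close together and the lines 3.56-fold to 4.5-fold apart in their means. GJA5, the connexin of arterial endothelium and heart conduction tissue, had 149 and 188 in FD2M1 and 852 and 588 in LSD1. ADORA1, an adenosine receptor, had 93.1 and 109 in FD2M1 and 289 and 350.3 in LSD1. SLC6A12, a betaine and GABA transporter, had 119 and 260.1 in FD2M1 and 387 and 824 in LSD1, about as large a passage difference in each line. TRIM66 had 32.7 and 59.3 in FD2M1 and 337 and 266 in LSD1, and DAPL1 had 30.6 and 42.8 against 117 and 307.

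Of the genes with only a LOC identifier, the lowest unadjusted p of all genes tested, 4.16e-05 (edgeR adjusted p = 0.176), belonged to LOC103096325 (chromosome 4), described in the study's tables as similar to carcinoembryonic antigen-related cell adhesion molecule 6. Its NRC was 319.9 and 309 in FD2M1 and 1281 and 1294 in LSD1, and 0 in the neoSFs of both strains. It was the most even of the ranked genes, the passages of each line differing far less than the lines, and its log2 difference of 2.03 moved only between 2.01 and 2.06 when a library was left out. LOC100027539, LOC103102989 and LOC100031013 were the other 3 LOC genes ranked as higher in LSD1. The 5 lowest p-values on this side belonged to LOC103096325, ETV2, PLAT, PPP1R3C and SEMA3G. PLAT, the tissue plasminogen activator, had an NRC of 904 and 2648 in FD2M1 and of 3706 and 7805 in LSD1. Both lines had more of it at passage 25, and the FD2M1 value at passage 25 stayed under the LSD1 value at passage 15.

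**Figure D2:**
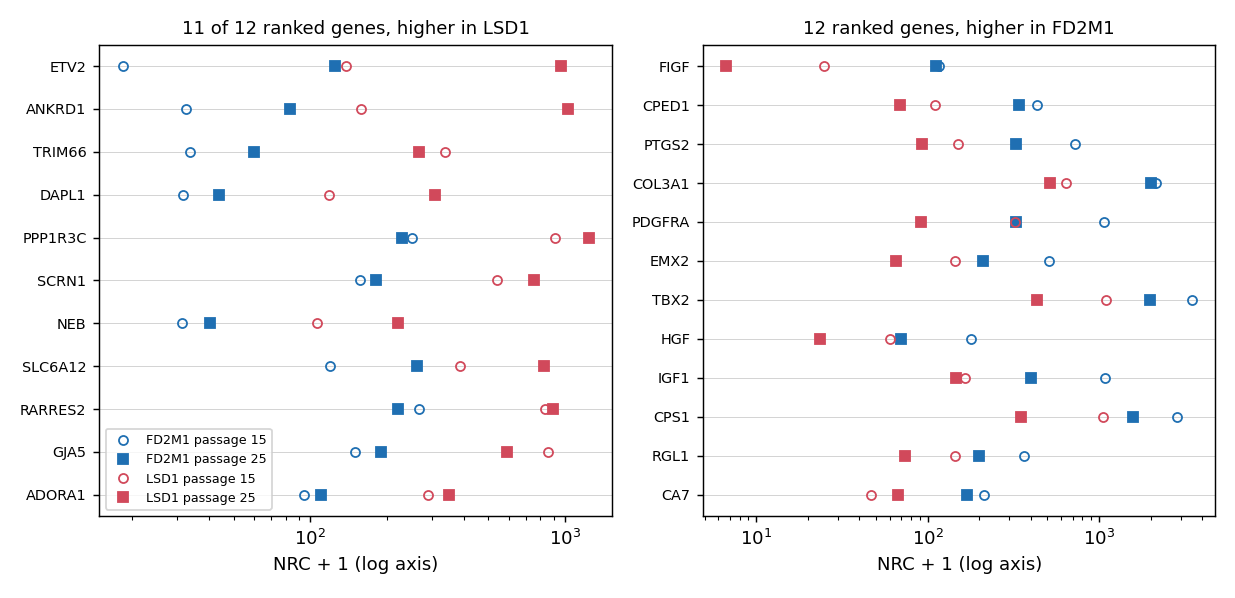
NRC + 1 (log axis) of 11 of the 12 ranked genes higher in LSD1 (left) and the 12 higher in FD2M1 (right) in each of the 4 libraries, open circles for passage 15 and filled squares for passage 25. ETV2 has 138 and 965 in LSD1 against 17.3 and 124 in FD2M1, and COL3A1 has 639 and 519 in LSD1 against 2137 and 2008 in FD2M1.

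The 12 ranked genes higher in FD2M1 were FIGF, CPED1, PTGS2, COL3A1, PDGFRA, EMX2, TBX2, HGF, IGF1, CPS1, RGL1 and CA7. FIGF, which encodes the lymphatic growth factor VEGF-D, had an NRC of 116 and 111 in FD2M1 and of 23.9 and 5.67 in LSD1. IGF1 had 1083 and 402 in FD2M1 and 165 and 145 in LSD1, and HGF had 177 and 68.7 against 58.9 and 22.7. The LSD1 levels of IGF1 were alike at both passages, and FD2M1 at passage 15 stood above the other 3 libraries. HGF was the only one of the 32 ranked genes that DESeq2 did not call (DESeq2 adjusted p = 0.15).

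PDGFRA, the receptor through which PDGF acts on mesenchyme and primitive endoderm, had an NRC of 1068 and 325 in FD2M1 and of 324 and 91.0 in LSD1. It was lower at passage 25 in both lines, and FD2M1 at passage 25 had nearly the same level as LSD1 at passage 15. Its log2 difference was -1.77 (standard error 0.21, edgeR adjusted p = 0.176) and moved between -2.93 and -0.64 when a library was left out. COL3A1, the fibrillar collagen of connective tissue, had 2137 and 2008 in FD2M1 and 639 and 519 in LSD1. It separated the lines evenly, with a log2 difference of -1.85 (standard error 0.17, edgeR adjusted p = 0.176) that stayed between -2.00 and -1.67. Its level in the neoSFs of both strains was far above either line, at 178851 for FD2M1 and 160528 for LSD1. The neoSFs were sequenced in a different facility and with shorter, single-end reads, whereas the monoiPSCs had paired-end reads, so cell type and sequencing cannot be told apart in this comparison.

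TBX2, a T-box repressor, had an NRC of 3492 and 1979.9 in FD2M1 and of 1094 and 432 in LSD1. PTGS2, the inducible cyclooxygenase, had 724 and 327 in FD2M1 and 148 and 91.9 in LSD1. CPS1, the mitochondrial enzyme that starts the urea cycle, had 2866 and 1574 in FD2M1 and 1047 and 349 in LSD1. All of these were also lower at passage 25 than at passage 15 in both lines. EMX2, a homeobox gene of forebrain and urogenital tract, had 509.7 and 209 in FD2M1 and 143 and 64.0 in LSD1, and CPED1 had 432 and 339 against 109 and 67.5. RGL1 had 365 and 199 against 144 and 72.7. CA7, a carbonic anhydrase, had 213 and 169 against 45.9 and 66.3 and was the one ranked gene of this side with a higher value at passage 25 in LSD1. The 5 lowest p-values on this side belonged to COL3A1, TBX2, LOC107651847, PDGFRA and PTGS2. LOC107651847 (chromosome 3) had an NRC of 10.1 and 138 in FD2M1 and of 0 and 7.30 in LSD1, so that its fitted difference rested on low counts and on FD2M1 at passage 25.

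The 4 LOC genes ranked as higher in FD2M1 were LOC107652073, LOC107649755, LOC107652051 and LOC107652025, and the last 3 of these are described in the study's tables as endogenous retrovirus group K (ERVK) members. ERVK proviruses are remnants of betaretroviral infection of the germ line and many copies are nearly the same in sequence. The tables held 59 genes with this description, 56 of them autosomal, and 55 passed the filter. The list is incomplete, and the study chose its genes as different between monoiPSCs and neoSFs, partly on these libraries. That choice took the monoiPSC libraries of both lines together against the neoSFs.

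Both FD2M1 libraries lay above both LSD1 libraries in 47 of the 55 ERVK genes, where 22.3% of all genes tested did. The reverse was found in 1 of 55 (20.9% of all genes). An unadjusted edgeR p under 0.05 with the higher level in FD2M1 was found for 41 of 55 (6.95% of all genes), no ERVK gene passed the adjusted threshold in the edgeR fit, and DESeq2 called 18 (0.585% of all genes). The median log2 difference was -1.23, with quartiles of -1.51 and -0.72, against 0.01 over all genes tested. It was -0.86 at passage 15 and -1.37 at passage 25. Of all 12653 genes tested, 120 were at least 2-fold higher in FD2M1 at both passages, and 21 of these were among the 55 ERVK genes.

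The summed NRC of the ERVK genes was 50336 and 60713 in FD2M1 and 31294 and 33166 in LSD1 at passages 15 and 25. LSD1 thus had 0.622 times the FD2M1 sum at passage 15 and 0.546 times at passage 25. LOC107649755 (chromosome 7) had an NRC of 149.8 and 146 in FD2M1 and of 30.2 and 25.8 in LSD1, a log2 difference of -2.39 (standard error 0.36, edgeR adjusted p = 0.181). LOC107652025 (chromosome 3) had 217 and 322 in FD2M1 and 61.8 and 61.7 in LSD1, and LOC107652051 (chromosome 3) had 128 and 210.1 against 35.1 and 29.7. The exception with both LSD1 libraries on top was LOC107649336, named after its values were seen, with 25.8 and 19.5 in FD2M1 and 34.2 and 26.8 in LSD1.

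The median log2 difference of the ERVK genes was on the FD2M1 side on all 8 autosomes, some of which held few of them. It was -1.27 on chromosome 1 (14 genes), -1.13 on chromosome 2 (12 genes) and -1.81 on chromosome 3 (6 genes). On chromosome 4 it was -1.33 (8 genes) and on chromosome 5 -0.71 (7 genes). Chromosomes 6 and 7, with 2 genes each, had -1.08 and -2.05, and chromosome 8, with 4 genes, had -1.06. Both FD2M1 libraries were higher in 1 of the 2 genes on chromosome 6. The median was -1.47 in the 28 genes of lower mean NRC and -0.99 in the 27 of higher mean NRC. In the neoSFs, 53 of the 55 genes had no more than 3 counts in either strain. That follows in part from the list, since the study chose its genes as different from neoSFs, and the neoSF reads were shorter and single-end. Reads of near-identical copies could be divided among these genes by the counting, so a single gene's value is less certain than the direction of the list, and the 55 genes are not independent of each other.

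**Figure D3:**
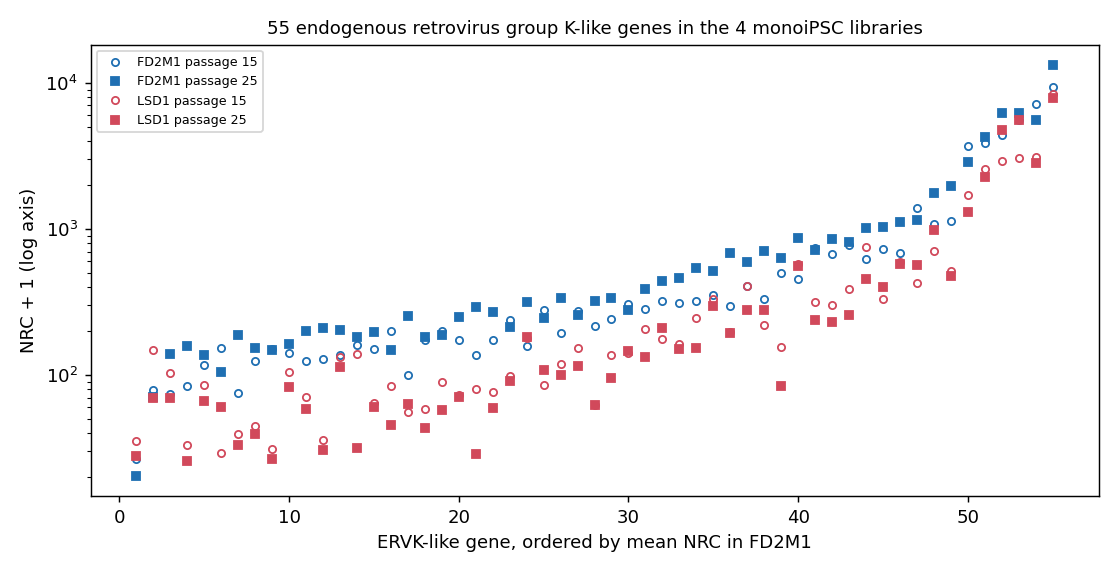
NRC + 1 (log axis) in the 4 libraries for the 55 tested ERVK-like genes, ordered by their mean NRC in FD2M1, open circles for passage 15 and filled squares for passage 25. Both FD2M1 values lie above both LSD1 values in 47 of the 55 genes, at low and at high levels.

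Among the core pluripotency genes, POU5F1 and POU5F3 differed little. POU5F1 had an NRC of 219 and 228 in FD2M1 and of 224 and 299.8 in LSD1 (log2 difference 0.22, standard error 0.25, edgeR adjusted p = 0.729). POU5F3, its paralog kept in marsupials, had 2459 and 2522 in FD2M1 and 2806 and 2793 in LSD1 (0.17, standard error 0.14, edgeR adjusted p = 0.611). SOX2 had 2649 and 3438 against 4088 and 3281. NANOG varied more, with 279.9 and 962 in FD2M1 and 858 and 1456 in LSD1, and its level was higher at passage 25 in both lines. Its lines overlapped, and its log2 difference of 1.09 (standard error 0.29, edgeR adjusted p = 0.253) ranged from 0.27 to 2.05 over the fits without 1 library.

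Of the 37 pluripotency genes listed, 24 were tested, 4 lay higher in both LSD1 libraries (20.9% of all genes) and 6 higher in both FD2M1 libraries (22.3% of all genes). The median log2 difference was 0.12, and it was -0.03 without FD2M1 at passage 15 and 0.23 without FD2M1 at passage 25. Single members differed more, with log2 differences from -1.24 to 1.09. An unadjusted edgeR p under 0.05 was found for 5 genes on the LSD1 side (6.89% of all genes) and 4 on the FD2M1 side (6.95%). DESeq2 called 1 higher in LSD1 (1.00% of all genes) and 2 higher in FD2M1 (0.585%). KLF4, PODXL and DNMT3A had overlapping lines. PRDM14, a repressor of differentiation, had 1456 and 1044 in FD2M1 and 956 and 888 in LSD1, and the methyltransferase DNMT3B had 175 and 203 against 149.9 and 181. ETV4 and ZIC2, both on the pluripotency list, were on the LSD1 side, ETV4 with 5917 and 7304 in FD2M1 and 10090.0 and 9658 in LSD1. PDGFA (log2 difference 0.41) and the trophectoderm factor TEAD4 (0.23), both named by the study, had overlapping lines.

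The members of the list that were furthest towards FD2M1 were LIN28B, TRIM71 and LIN28A, which keep the let-7 microRNAs from maturing or act on the same targets. LIN28B (gene 100028142, chromosome 2) had an NRC of 2150.2 and 1508 in FD2M1 and of 1089 and 533 in LSD1, a log2 difference of -1.24 (standard error 0.20, edgeR adjusted p = 0.181). LIN28A had 4328 and 5391 in FD2M1 and 3597 and 1839.6 in LSD1, so that LSD1 at passage 25 was the lowest library. A list of genes around LIN28 and let-7 was added after these values were seen. Of its 12 tested genes, 8 were higher in both FD2M1 libraries (22.3% of all genes) and 0 in both LSD1 libraries (20.9% of all genes), with a median of -0.51. The list holds LIN28B, TRIM71 and LIN28A, for which it was made. They include IGF2BP1, an mRNA-binding protein and known let-7 target, with 2478 and 1779.8 in FD2M1 and 1208 and 699.5 in LSD1. TRIM71 had 2155 and 1661 against 1206 and 702. IGF2BP2 and DIS3L2 of the same list had log2 differences of 0.00 and 0.07.

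Genes of the cell cycle stood on the FD2M1 side in small and even steps. All 35 listed genes were tested, and both FD2M1 libraries lay above both LSD1 libraries in 27 of them (22.3% of all genes). The reverse was found in NUF2 alone (20.9% of all genes). The median log2 difference was -0.35, and it was -0.39 at passage 15 and -0.36 at passage 25. An unadjusted edgeR p under 0.05 was found for 17 of 35 on the FD2M1 side (6.95% of all genes) and for 1 on the LSD1 side (6.89%). DESeq2 called CCNE1 alone (0.585% of all genes on the FD2M1 side). CCNE1 had an NRC of 10762 and 12118 in FD2M1 and of 3853 and 5904 in LSD1, a log2 difference of -1.26 (standard error 0.16, edgeR adjusted p = 0.176).

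Next came genes of DNA replication. RRM2, a subunit of ribonucleotide reductase, had 4812 and 2769 in FD2M1 and 2092 and 1836 in LSD1. MCM4, of the replicative helicase, had 2622 and 2162 against 1483 and 1116, and PCNA, the polymerase clamp, had 5088 and 4419 against 3271 and 2767. The passages of each line were closer to each other than the lines were for MCM4 and PCNA. The proliferation marker MKI67 differed less, with 7831 and 7092 in FD2M1 and 7014 and 6678 in LSD1. UHRF1, which keeps DNA methylation through replication, had 8356 and 7685 against 6095 and 4799.8. Of 14 tested genes of DNA methylation and demethylation, 7 were higher in both FD2M1 libraries (22.3% of all genes) and 1 in both LSD1 libraries (20.9% of all genes), with a median of -0.36.

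Muscle genes gave the largest median of the 23 lists, and their difference was far larger at passage 25 than at passage 15. Of 31 listed genes 25 were tested. Of these, 16 were higher in both LSD1 libraries (20.9% of all genes) and 1, EYA1, in both FD2M1 libraries (22.3% of all genes). The median log2 difference over both passages was 1.71, but it was 0.42 at passage 15 and 2.49 at passage 25. It was 0.81 without LSD1 at passage 25. The summed NRC of the list was 19861 and 16009 in FD2M1 and 21558 and 58937 in LSD1, so that LSD1 had 1.09 times the FD2M1 sum at passage 15 and 3.68 times at passage 25. An unadjusted edgeR p under 0.05 on the LSD1 side was found for 13 genes (6.89% of all genes), and DESeq2 called 6 (1.00% of all genes).

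MYOD1, the factor that commits cells to skeletal muscle, had an NRC of 103 and 35.1 in FD2M1 and of 99.4 and 591 in LSD1, so that the lines overlapped and LSD1 at passage 25 stood alone. MYOG, which starts the terminal differentiation of muscle, differed at both passages, with 1527 and 985 in FD2M1 and 4135 and 5549 in LSD1. Its log2 difference was 1.96 (standard error 0.26, edgeR adjusted p = 0.181), and it stayed between 1.67 and 2.30 when 1 library was left out.

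Several genes of the contractile apparatus had their highest level in LSD1 at passage 25. ACTA1, skeletal actin, had 1118 and 754 in FD2M1 and 1765 and 9645 in LSD1, and DES, the desmin of muscle cells, had 563 and 315 against 769 and 4213. TNNT2, a troponin, had 269 and 175 against 472 and 2431. MYL1 had its lowest value in LSD1 at passage 15, at 1526, and its highest in LSD1 at passage 25, at 5953. MEF2C, a partner of the myogenic factors, had nearly equal levels, with a log2 difference of 0.06. The neural list shifted in the same way between passages, its median being -0.55 at passage 15 and 0.65 at passage 25. Over both passages it was 0.20, and it lay between -0.27 and 0.49 over the fits without 1 library. The neuronal tubulin TUBB3 had 3171 and 1120.5 in FD2M1 and 1438 and 3414 in LSD1. Whether differentiated cells in the cultures account for these values was not tested.

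**Figure D4:**
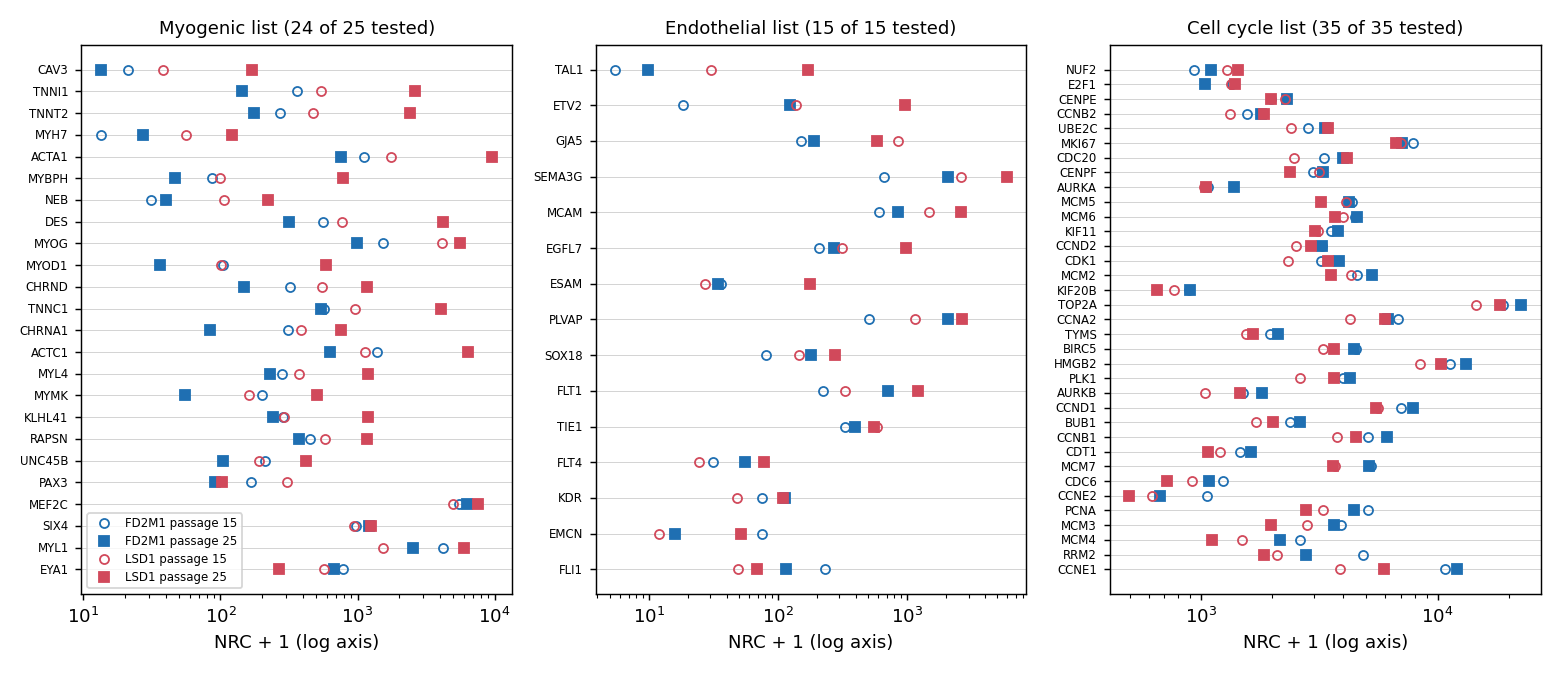
NRC + 1 (log axis) in the 4 libraries for the tested genes of the myogenic (24 of 25 shown), endothelial and cell cycle lists, ordered from top to bottom by the fitted difference of LSD1 minus FD2M1. In the myogenic list LSD1 at passage 25 stands to the right of the other 3 libraries in most genes, while in the cell cycle list both FD2M1 libraries lie to the right in 27 of 35 genes.

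A list of endothelial and blood genes was added after ETV2 and SEMA3G were seen among the lowest p-values, so its counts describe these libraries and support nothing by themselves. Of 15 tested genes, 7 were higher in both LSD1 libraries (20.9% of all genes) and 1, FLI1, in both FD2M1 libraries (22.3% of all genes). The median was 0.77, and it was 0.19 without LSD1 at passage 25 and 1.65 without FD2M1 at passage 25. The summed NRC of the list was 3295 and 7282 in FD2M1 and 7890 and 16557 in LSD1. It was thus about as much higher in LSD1 at passage 15, by 2.39 times, as at passage 25, by 2.27 times, and it was 2.21 times higher at passage 25 than at passage 15 in FD2M1 and 2.10 times in LSD1.

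TAL1, a basic helix-loop-helix factor of blood stem cells, had an NRC of 4.49 and 8.79 in FD2M1 and of 29.4 and 170.0 in LSD1 (log2 difference 3.76, standard error 0.60, edgeR adjusted p = 0.181). MCAM, an adhesion molecule of vessel walls, had 602 and 849 in FD2M1 and 1477 and 2628 in LSD1. SEMA3G, a semaphorin of arterial endothelium, had 658 and 2064 against 2645 and 5926. Of the receptors of the lineage, KDR, the main VEGF receptor, had overlapping lines, with 74.1 and 113 in FD2M1 and 47.3 and 108 in LSD1. TIE1 was higher in both LSD1 libraries, with 333 and 394 against 583 and 554. FLI1, an ETS factor of the same lineage, had 230.1 and 115 in FD2M1 and 47.9 and 68.5 in LSD1.

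A list of laminin chains was added after values of these data were seen. Of 11 tested chains, 5 were higher in both LSD1 libraries (20.9% of all genes) and LAMA1 in both FD2M1 libraries (22.3% of all genes). The median was 0.90, and it was 0.35 without LSD1 at passage 25, 0.47 without FD2M1 at passage 15 and 1.23 without FD2M1 at passage 25. LAMC3 had an NRC of 227 and 408 in FD2M1 and of 796 and 1109 in LSD1 (log2 difference 1.62, standard error 0.21, edgeR adjusted p = 0.176). LAMB3, a chain of epithelial basement membranes, had 23.6 and 19.1 in FD2M1 and 59.9 and 57.7 in LSD1, and LAMA3 had 23.6 and 64.6 against 54.7 and 124. LAMA5, a main chain of the matrix on which pluripotent cells attach, had 1884 and 4187 against 4295 and 6354. LAMB1 and LAMC1, the common chains of most laminins, had log2 differences of 0.00 each. Of 10 tested keratinocyte genes, 4 were higher in both LSD1 libraries (20.9% of all genes) and 1 in both FD2M1 libraries (22.3% of all genes). LAMB3 is on both the laminin and the keratinocyte list. The median of the keratinocyte list was 0.46, and it was 0.27 without FD2M1 at passage 15 and 0.76 without FD2M1 at passage 25.

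Of 28 listed fibroblast genes 20 were tested. Of these, 8 (40%) were higher in both FD2M1 libraries, against 22.3% of all genes. A further 4 (20%) were higher in both LSD1 libraries, near the 20.9% of all genes. The median was -0.31. Those on the FD2M1 side include PRRX1, a homeobox gene of mesenchyme, with an NRC of 1355 and 596 in FD2M1 and of 397 and 299 in LSD1, and the small matrix proteoglycan LUM, with 639 and 875 against 249 and 453. Those on the LSD1 side include PDGFRB, with 159 and 243 in FD2M1 and 405 and 410.1 in LSD1, and the intermediate filament gene VIM, with 6514 and 6266 against 8738 and 8809.6. The list summed to an NRC of 47260 and 49643 in FD2M1 and of 48555 and 61286 in LSD1, against 3616340 and 3880560 in the neoSFs of FD2M1 and LSD1. ACTA2 was at 0 in both LSD1 libraries and had an NRC of 1.12 and 5.02 in FD2M1.

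Genes of other lineages differed one by one. Both FD2M1 libraries were higher for TFAP2A, of neural crest and surface ectoderm, with an NRC of 102 and 72.4 against 12.5 and 20.4 in LSD1. They were higher for CDX2, of posterior epiblast and trophectoderm, with 3928 and 3991 against 2662 and 1124, and for GATA2, with 89.2 and 38.9 against 16.8 and 18.5. PAX6, of the neural plate and eye, had 140.1 and 24.5 in FD2M1 and 41.3 and 2.06 in LSD1. It was lower at passage 25 in both lines, and its lines overlapped. DCT, the dopachrome tautomerase of melanoblasts and early neural tissue, was on the LSD1 side, with 5608 and 4372 in FD2M1 and 15279 and 7858 in LSD1. DLL1, a Notch ligand of presomitic mesoderm, was on the same side, with 283 and 226 against 543 and 621. The medians of the melanocyte list (-0.03, 11 genes tested), the trophectoderm list (0.10, 11 genes), the hypoblast list (0.05, 6 genes) and the posterior list (0.00, 18 genes) were close to that of all genes over the 4 libraries, but not in each fit without 1 library. Those fits gave medians of -0.13 to 0.44 for the melanocyte list, of -0.55 to 0.27 for the trophectoderm list and of -0.47 to 0.34 for the hypoblast list. The posterior list had a median of 0.00 at passage 15 and of -0.32 at passage 25. Of genes named by the study, KRT19 (log2 difference 0.12) and PTGES (0.15) had overlapping lines, and GATA6 was under the filter with an NRC of 2.53 to 28.3.

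**Figure D5:**
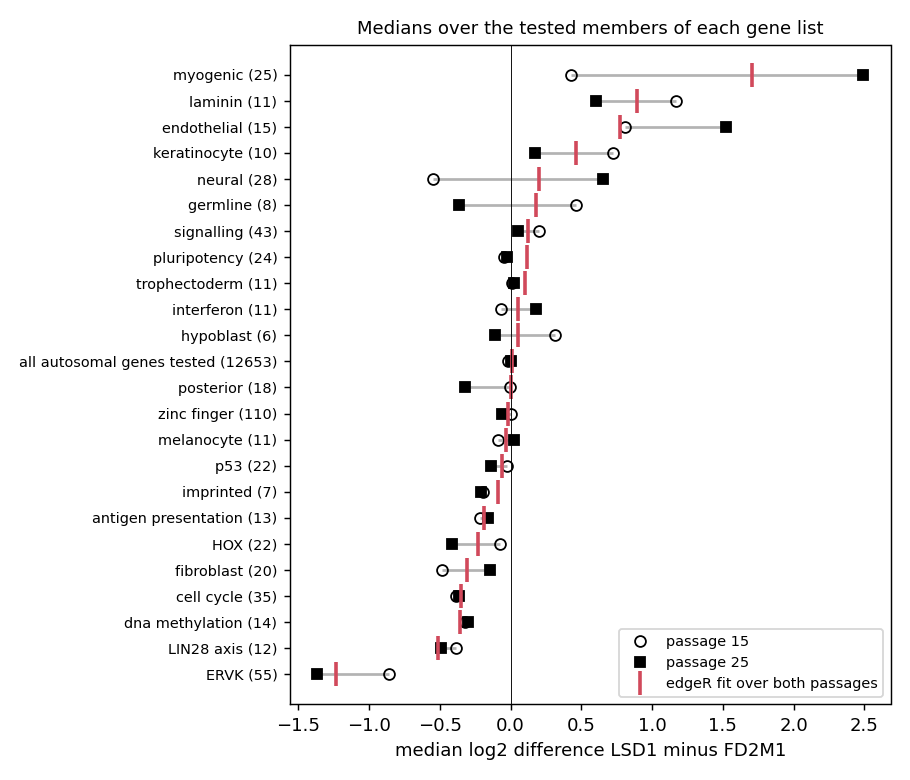
Median log2 difference of LSD1 minus FD2M1 over the tested members of each gene list (number tested in brackets), at passage 15 (open circles), passage 25 (filled squares) and in the edgeR fit over both (vertical bars), with all 12653 genes tested for reference. The ERVK list lies at -0.86 and -1.37 and the cell cycle list at -0.39 and -0.36, while the myogenic list goes from 0.42 to 2.49.

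Of 43 tested signalling genes, 10 were higher in both LSD1 libraries (20.9% of all genes), a share near that of all genes, and 5 in both FD2M1 libraries (22.3% of all genes), with a median of 0.12. SFRP1, a secreted inhibitor of WNT signalling, had an NRC of 2787 and 2191 in FD2M1 and of 5723 and 4140.3 in LSD1, and DKK1, another such inhibitor, had 681 and 656 against 287 and 439. BMP2 had 1217 and 862 in FD2M1 and 473 and 492 in LSD1. LIFR, the receptor for the LIF in the medium, had 953 and 347 in FD2M1 and 391 and 177 in LSD1, lower at passage 25 in both lines and overlapping between them. Of 22 tested HOX genes, 10 were higher in both FD2M1 libraries (22.3% of all genes) and 1, HOXA4, in both LSD1 libraries (20.9% of all genes). Their median was -0.23, and it was -0.08 at passage 15 and -0.42 at passage 25. HOXD8 had 338 and 403 in FD2M1 and 155 and 158 in LSD1, and HOXA10 had 281 and 263 against 180.1 and 120.1.

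No autosome stood apart in its median difference between the lines. The NRC reached 20 in each of the 4 libraries for 11946 genes. Over these, the median log2 difference of each of the 8 autosomes lay between -0.02 and 0.03 when averaged over passages. The counts of genes in each direction were most uneven on chromosome 3. Of its 1670 genes, 415 were higher in both FD2M1 libraries and 297 in both LSD1 libraries. Over windows of 200 neighbouring genes in the order of the mMonDom1 assembly, centred on the median of all, the mean difference of the lines stayed between -0.12 and 0.19. Only 1 autosomal gene was at the floor of 3 counts in both libraries of one line and at an NRC of at least 20 in both libraries of the other. This was CNGB1 (gene 100025464, chromosome 1), a subunit of the photoreceptor cation channel, with 2 and 0 counts in FD2M1 and an NRC of 44.1 and 20.2 in LSD1. Against the floor of 3 counts per library its mean was at least 17.1-fold higher in LSD1.

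The neoSFs of each strain showed how far these differences were already present in the parental cells, with 1 library per strain and therefore no test. Of the 12653 genes tested, 11513 had an NRC of at least 20 in at least 1 neoSF library, and the sign of the difference between strains was the same as that between the monoiPSC lines for 6555 (56.9%). For genes whose lines did not overlap it was the same for 3021 of 5032 (60.0%). Of the 32 ranked genes, 21 were expressed in neoSFs, and 12 had the same sign there. TRIM66 was among them, with an NRC of 50.7 in neoSFs of FD2M1 and 155 in those of LSD1. FIGF and COL3A1 differed by less than 2-fold between the neoSFs, and ETV2 was under the filter there, with an NRC of 2.60 in FD2M1 and 0 in LSD1. PPP1R3C had 1022 in FD2M1 and 1601 in LSD1 neoSFs, and 4 others had a difference of at least 2-fold in the opposite direction. The myogenic list was also opposite in neoSFs. Of its 22 genes expressed there, 19 were higher in FD2M1 and 3 in LSD1 (median log2 difference -2.29). Of 8 endothelial genes, 6 were higher in FD2M1 neoSFs and 2 in LSD1 neoSFs (median -1.36). The cell cycle list kept its direction, with 26 of 35 genes higher in FD2M1 neoSFs and 9 in LSD1 neoSFs (median -0.43). The share of all genes higher in the neoSFs of each strain is not given, so these counts have no background beside them. Other lists also leaned to FD2M1 neoSFs, such as HOX (16 of 21 genes) and signalling (24 of 37). The zinc finger (62 of 109) and interferon (8 of 11) lists leaned to LSD1 neoSFs.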

How the data were processed

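Total RNA of 2 neoSF cultures and of 2 monoiPSC lines at passages 15 and 25 was sequenced. The labels give the TruSeq RNA v2 kit for all 6 libraries, while the methods of the study call the neoSF libraries stranded and name no kit for the monoiPSC libraries, which a sequencing service read as paired ends. Whether the counts used the strand is not given, so a gene and an antisense partner may share reads. Per the study's methods, the authors aligned the reads to the MonDom5 assembly and RefSeq transcripts with StrandNGS, removed non-primary multiply mapped reads, and counted reads per gene. The deposited counts were estimated counts, of which 87.1% of values above 0 were fractional, and they were rounded for the count models. The deposited log2 values were normalized by the authors with DESeq scaling across all 6 libraries, and NRC is 2 to that power. The genes listed at 0 in this table were taken as an NRC of 0.

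Autosomal genes with a mean NRC of at least 20 over the 4 monoiPSC libraries were fitted with edgeR 4.0.16 (TMM scaling, quasi-likelihood test, passage as covariate, 1 residual degree of freedom) and called at a Benjamini-Hochberg adjusted p of 0.05 and a 2-fold difference. DESeq2 1.42.0, limma 3.58.1 on the log2 values, RLE scaling, other filters, no passage term, all chromosomes and fits without each library were alternatives. The edgeR, DESeq2 and limma fits with passage as covariate were tested on simulated counts. Passage is given in the labels and pairs the libraries of the lines, although the passage differences of the lines had a correlation across genes of only 0.19. A single value of 2 against 2 libraries could not go below an exact permutation p of 0.333, so none is given. Fold differences within a passage are on the log2(NRC + 1) scale, with a pseudocount of 1.

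Genes were ranked, among those with both libraries of one line above both of the other and at least 100 NRC on average in the higher line, by the smaller of the differences at the 2 passages. The first 12 with a symbol and 4 with a LOC identifier in each direction were named, together with the 5 lowest p-values per direction, the genes the study names, and members of the gene lists, of which further examples were chosen after their values were seen. The values of 2 genes are not reported here, although counts and medians include them. Symbols are those of the files, with 25831 gene identifiers matched to RefSeq (mMonDom1.pri), which served for names and gene order alone. The comparison and the lists were chosen with earlier results of these data known. No sequences are printed. Counting error alone is covered by the floor of 3 counts.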

Additional observations from a re-analysis of the deposited data

Results flagged for a closer look

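In 4 of the ranked genes the strains differed in the opposite direction in neoSFs, by at least 2-fold on the log2(NRC + 1) scale, with 1 neoSF library per strain, so that the change of direction was not tested. The log2 difference of LSD1 minus FD2M1 for ANKRD1 was 2.28 at passage 15 and 3.63 at passage 25 in the monoiPSCs, and -1.89 in the neoSFs. NEB differed by 1.77 and 2.46 in the monoiPSCs and by -1.47 in the neoSFs. RARRES2 differed by 1.64 and 2.03 in the monoiPSCs and by -2.42 in the neoSFs, where its NRC was 2830.3 in FD2M1 and 527 in LSD1. EMX2 differed by -1.83 and -1.69 in the monoiPSCs and by 1.05 in the neoSFs. These values differ between cell types in sign, and each neoSF value rests on a single library.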

How the results depend on the processing

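The count of 0 genes called in the comparison of the lines was also 0 with RLE scaling, legacy quasi-dispersions, 3 other filters, all chromosomes and limma. Without the replicate block (no passage term) it was 0, with 1235 genes at an unadjusted p under 0.05 against 1751. DESeq2 called 201 of 12653 genes, 51 of them among the 512 list members tested. Some lists were added after values of these data were seen, so the share among list members supports nothing by itself. Without 1 library at a time, in fits without the passage term, 0 to 39 genes were called, 39 without LSD1 at passage 15 and 1 without FD2M1 at passage 25, and 0 to 9 list members. In these fits the line with 1 library is assumed to vary like the other. All 35 ranked or lowest-p genes kept the sign of their difference in each alternative that tested them (449 fits), and 34 were called by DESeq2. The ranked genes were chosen with lines that did not overlap. Their sign could therefore hardly change, and its being kept is no separate evidence. The largest mean difference over windows of 200 genes was 0.19, and it was 0.21 at passage 15 alone and 0.22 at passage 25 alone. Over windows of 100 genes it was 0.27, and 0.33 at passage 15 alone. Over 200 genes with a mean NRC of at least 20 it was 0.26 at passage 25 alone. With an NRC of at least 50 asked of the expressed line, 0 genes were left at the floor in the other. The cause of these differences was not tested.

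With 1 line per strain and 1 library per line and passage, the strain, the line and its culture cannot be told apart, and the error was how far the difference of the lines varied between passages, moderated over genes. At 28684754 to 35564261 counts per library, a count of 3 was an NRC of 1.55 to 1.88, so genes near an NRC of 20 rest on few reads.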

Other observations

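Some genes of antigen presentation differed between passages in both lines. PSMB8, a subunit of the immunoproteasome, had an NRC of 524 and 77.4 in FD2M1 and of 141 and 33.8 in LSD1 at passages 15 and 25, and PSMB9 had 67.4 and 8.17 against 16.8 and 4.12. Both were lower at passage 25 in each line. TAP1, the peptide transporter, had 67.7 in FD2M1 at passage 15 and 15.7 to 17.8 in the other 3 libraries. The log2 difference of the lines for PSMB8 was -1.61 over both passages (edgeR adjusted p = 0.196), and it ranged from -3.15 to 0.19 over the fits without 1 library. B2M, the light chain of class I molecules, had 3091 and 1676 in FD2M1 and 3497 and 2427 in LSD1. Of 13 tested genes of this list, 1 was higher in both LSD1 libraries (20.9% of all genes) and 0 in both FD2M1 libraries (22.3% of all genes). The median was -0.19, and it lay between -0.30 and 0.18 over the fits without 1 library. The summed NRC of the list at passage 25 was 1.04 times that at passage 15 in FD2M1 and 0.912 times in LSD1.

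The p53 list (median -0.06, 22 genes tested), the interferon list (0.05, 11 genes), the zinc finger list (-0.02, 110 genes), the imprinted list (-0.09, 7 genes) and the germline list (0.18, 8 genes) had medians near that of all genes tested over the 4 libraries. Without 1 library the medians lay between -0.19 and 0.23 for the p53, interferon, zinc finger and imprinted lists, and between -0.16 and 0.53 for the germline list. CGAS, the cytosolic DNA sensor, had an NRC of 157 and 281 in FD2M1 and of 293 and 615 in LSD1. Neurofilament genes NEFL (9.54 and 6.90 against 37.9 and 37.1) and NEFM (55.0 and 49.5 against 126 and 162) were higher in both LSD1 libraries, unlike TUBB3 and ELAVL3, whose lines overlapped. On the X chromosome, which was left out of the comparison, 334 genes passed the same filter. Their median difference was -0.01 at passage 15 and 0.04 at passage 25, 24.3% were higher in both LSD1 libraries and 21.6% in both FD2M1 libraries, and 0 were called by edgeR in the fit over all chromosomes.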
